A study of Mus musculus with 24 samples.

Results

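The comparison set islets of 8 mice on a high-fat diet against islets of 8 mice on chow, with strain as a blocking term. The mice were of 2 related inbred strains, BL6 (labelled C57BL6/J) and BLKS (labelled C57BLKs/J). It used 16 of the 24 arrays of the series, chosen by group label alone: 4 BL6 and 4 BLKS mice on chow (18% of energy from fat) and 4 BL6 and 4 BLKS mice on the high-fat diet (HFD, 42% of energy from fat). All were males, labelled 8 weeks old, with no engineered allele named in the labels. The stated length of feeding was 12 weeks in the sample labels and 16 weeks in the series text, and this difference was not resolved. The labelled age is below both lengths, so it cannot be the age at the end of that feeding. The 8 arrays left aside came from mice on the same high-fat diet with pioglitazone (PIO), an antidiabetic drug that activates PPAR-gamma, at 140 mg per kg of diet. The question was which genes move the same way with the diet in both strains. Each array was hybridised with Cy3-labelled RNA of the islets of 1 mouse. Levels below are log2 intensities relative to the 75th percentile of the array, so 0 is that percentile and a difference of 1 is a doubling.

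Pancreatic islets hold insulin-secreting beta cells, glucagon-secreting alpha cells and smaller endocrine populations, and they respond to a diet rich in fat by secreting more insulin and, in many mouse strains, by gaining beta cells. Islet cells also run a circadian clock. In that clock the transcription factor BMAL1, the product of Arntl, pairs with CLOCK or NPAS2 and drives the Per and Cry genes, whose products repress it. ROR receptors activate and REV-ERB receptors (Nr1d1, Nr1d2) repress Arntl and Nfil3, so that these genes peak in another phase than the Per genes. NFIL3 and the activators DBP, TEF and HLF compete for the same DNA element, the D-box.

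The 75th percentile of processed intensity lay between 264.98 and 386.55 on the 16 arrays, and its log2 did not differ between diets beyond the spread (difference 0.00039, exact two-sided permutation test within strains, p = 0.998). Between 31166 and 35164 spots per array were well above background. The islet hormone transcripts were among the brightest, with Ins1 between 9.65 and 10.28 on all 16 arrays. All 8 BL6 arrays lay on slide 1. The BLKS high-fat arrays lay on slide 3 and the BLKS chow arrays on slides 2 and 4, so slide and diet cannot be told apart within BLKS. Among these 16 arrays the strains shared no slide, so slide and strain cannot be told apart either. Replicates are separate mice, and the number of arrays limits the precision.

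Of 22431 genes tested, 4 differed between high-fat diet and chow over both strains at an adjusted p under 0.05 (0.0178%), and all 4 fell on the high-fat diet in both strains. They were the clock genes Arntl and Nfil3, the peptidase gene Cpm and the predicted transcript Gm2569. The count of genes that passed higher on the high-fat diet was 0. At an unadjusted p under 0.05 there were 1579 genes (7.04%), of which 527 were higher (2.35%) and 1052 lower (4.69%). Across all genes the median difference was -0.0088 and the median standard error (SE) was 0.0993. The difference was positive in 46.5% of genes.

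The difference had the same sign in BL6 and BLKS for 10411 genes (46.4%), of which 4686 were higher in both (20.9%) and 5725 lower in both (25.5%), and the strains' differences, which share no arrays, correlated across genes at a Pearson r of 0.0732 and a Spearman rho of -0.0402 (genes are not independent replicates). At an unadjusted p under 0.05 in each strain, 105 genes moved the same way (0.468%), 29 of them higher (0.129%) and 76 lower (0.339%), and 113 moved in opposite directions (0.504%). In 34 genes (0.152%) the 4 high-fat mice of each strain all lay on the same side of the 4 chow mice, 14 higher (0.0624%) and 20 lower (0.0892%). In 42 genes (0.187%) the groups separated in both strains but in opposite directions. Groups were separate in 1098 genes (4.9%) in BL6 and 1306 (5.82%) in BLKS, whatever the other strain did.

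**Figure D1:**
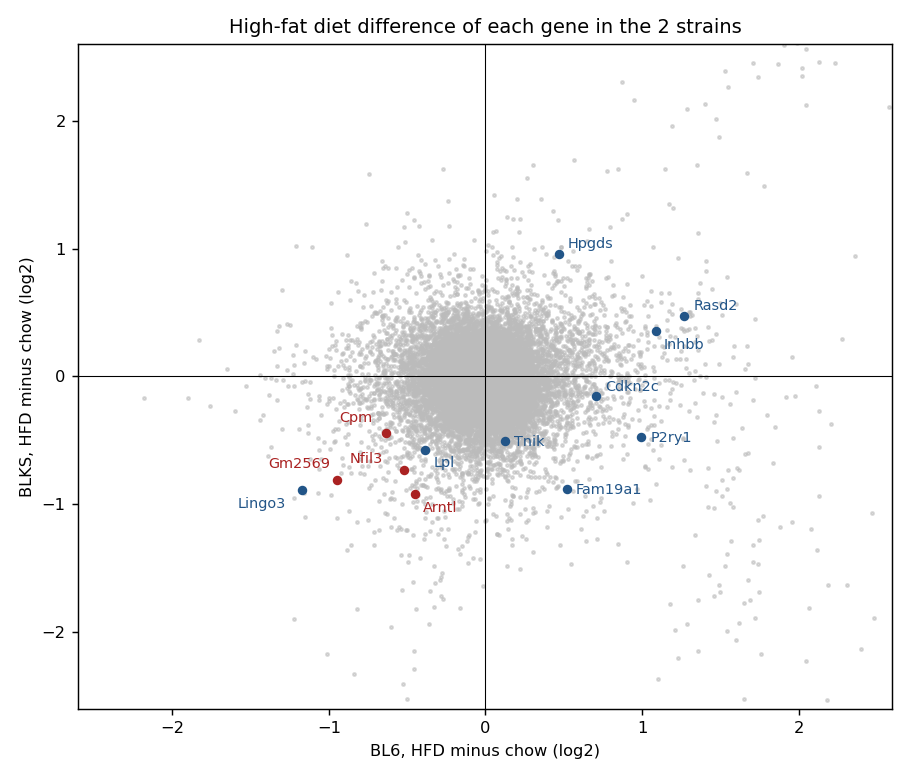
Difference between high-fat diet and chow (log2) of each tested gene in BL6 (x axis) and in BLKS (y axis); grey points are all genes within 2.6 of 0 on each axis, which leaves 44 genes outside. Red names mark the 4 genes that passed over both strains, all in the lower left quadrant, and blue names mark other genes described in the text.

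Arntl was lower on the high-fat diet in every mouse of both strains. In BL6 its levels were 1.16, 1.09, 1.12 and 1.05 on chow and 0.66, 0.91, 0.62 and 0.44 on the high-fat diet. In BLKS they were 1.46, 1.51, 1.35 and 1.19 on chow and 0.53, 0.47, 0.62 and 0.21 on the high-fat diet. The groups did not overlap in either strain, and the lowest chow mouse of each strain lay above its highest high-fat mouse. Over both strains Arntl fell by 0.69 on the log2 scale (SE 0.097, adjusted p = 0.0399), to 0.622 of the chow level, with a 95% interval of the difference from -0.89 to -0.48. The difference was -0.45 in BL6 (adjusted p = 0.245) and -0.92 in BLKS (adjusted p = 0.00825). The limma interaction term for the difference between strains had an adjusted p of 0.337. The probe lies at mm9 chromosome 7, 120457261 to 120457320.

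Nfil3, which encodes the D-box repressor, fell as well. Its levels in BL6 were 3.63, 3.50, 3.40 and 3.40 on chow and 3.03, 3.25, 2.73 and 2.81 on the high-fat diet. In BLKS, where the gene was brighter, they were 5.97, 5.98, 6.07 and 5.92 on chow and 5.40, 5.47, 4.95 and 5.19 on the high-fat diet. Again the groups were separate within each strain, while the chow level of BLKS exceeded that of BL6 by 2.50. Over both strains Nfil3 fell by 0.63 (SE 0.090, adjusted p = 0.0399), to 0.648 of the chow level (95% interval of the difference -0.82 to -0.44). The difference was -0.52 in BL6 and -0.73 in BLKS (adjusted p of the limma interaction = 0.728). Its probe lies at mm9 chromosome 13, 53062578 to 53062637.

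**Figure D2:**
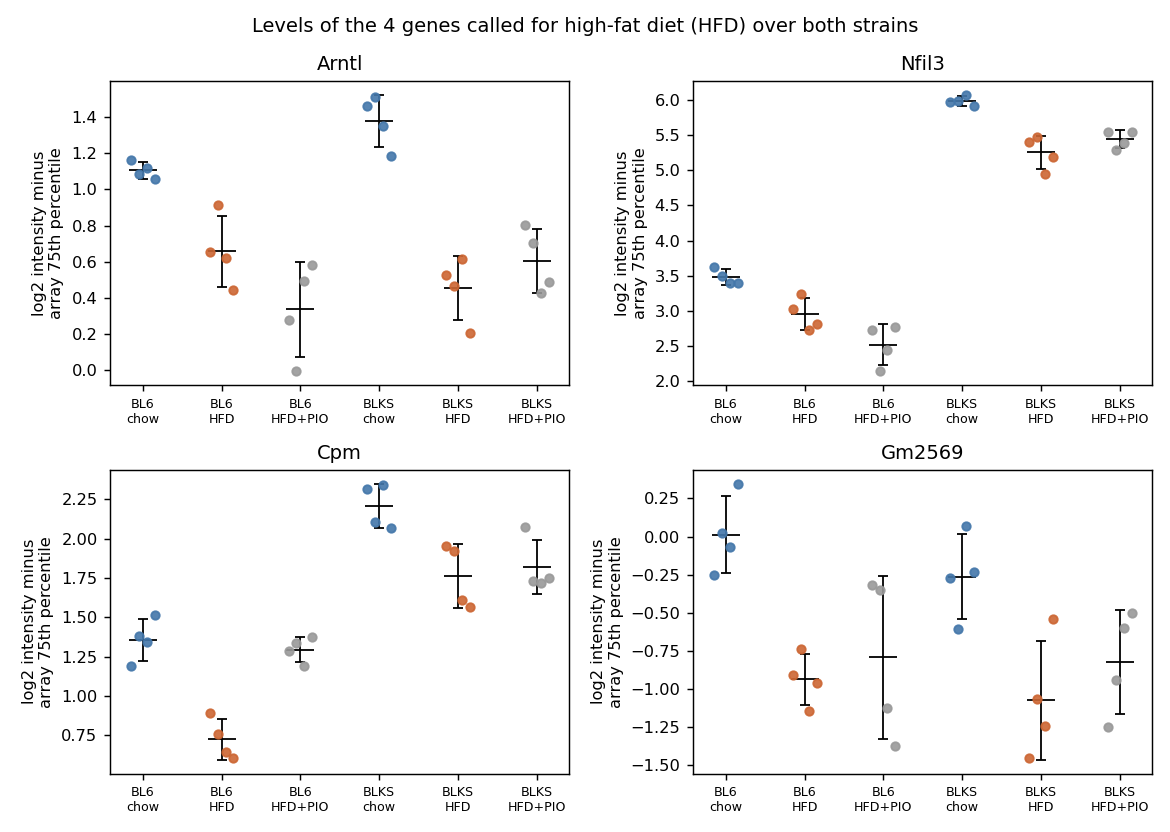
Levels (log2 intensity minus the array's 75th percentile) of Arntl, Nfil3, Cpm and Gm2569 in each mouse, with points for mice and black bars for the group mean and SD of 4 mice; the pioglitazone groups (grey) were not part of the comparison. For Arntl, Nfil3 and Cpm the 4 high-fat mice of each strain lie below all 4 chow mice of that strain, and for Gm2569 the BLKS groups overlap.

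Because Arntl and Nfil3 moved together, their promoter windows were searched for AGGTCA, the core of the element that ROR and REV-ERB receptors bind, on both strands (TGACCT on the opposite strand). The windows are from RefSeq on build GRCm38.p6 and run from 250 bases before to 50 bases after an annotated start; 3 of the 4 called genes had an entry. The first sequence is the 250 bases upstream of Nfil3 (chr13:52981040-52981289, minus strand). The second is a stretch of 30 bases just past the second annotated start of Arntl (chr7:113207531-113207560, plus strand). The third is the 250 bases upstream of Per3 (chr4:151044666-151044915, minus strand), shown because Per3 moved the other way and holds the D-box letters TTATGTAA. Capitals mark the matches.
Nfil3: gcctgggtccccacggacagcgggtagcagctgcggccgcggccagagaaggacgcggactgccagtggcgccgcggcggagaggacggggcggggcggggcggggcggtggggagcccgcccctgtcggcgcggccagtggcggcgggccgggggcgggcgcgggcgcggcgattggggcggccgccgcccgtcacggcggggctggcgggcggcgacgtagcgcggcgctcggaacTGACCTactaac
Arntl: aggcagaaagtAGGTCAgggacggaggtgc
Per3: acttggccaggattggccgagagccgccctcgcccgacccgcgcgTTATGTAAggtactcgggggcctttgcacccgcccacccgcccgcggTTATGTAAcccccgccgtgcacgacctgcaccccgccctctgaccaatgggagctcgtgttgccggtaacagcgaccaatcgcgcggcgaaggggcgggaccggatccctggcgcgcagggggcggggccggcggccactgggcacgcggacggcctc
The Nfil3 match begins 12 bases before the start site, and the Arntl match 31 bases after its second annotated start; the window of its first start holds none. Cpm also holds AGGTCA, 193 bases before its start, and so does Per1, which differed by 0.047 and did not pass. These letters are common: 14% of 32851 windows hold AGGTCA on either strand in their 250 upstream bases, and 16.3% in all 300 bases. TTATGTAA is rarer, in 0.819% of the upstream stretches, and Per3 has it at 205 and 158 bases before its start. The windows of Arntl, Nfil3, Cpm, Npas2, Cry1, Dbp, Tef, Nr1d1 and Per1 were searched as well and lack it. A match describes the letters only; binding was not measured.

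The list of clock activators and genes of the same phase held 8 genes, all tested. Of these, 2 passed and fell, and 4 were lower and 0 higher at an unadjusted p under 0.05 (50%, beside 7.04% of all genes). Those 4 include the 2 called genes, Arntl and Nfil3, and the list was chosen with earlier results of these data known. A negative difference was found in 7 of the 8 and a positive one in 1, while 46.5% of all genes had a positive one. The list's median was -0.295, beside -0.0088 over all genes. Npas2, the paralog of Clock, differed by -0.54 (adjusted p = 0.636), but it was dim: it was well above background on 1 BL6 chow array and 0 BL6 high-fat arrays. Clock itself differed by -0.034 with a 95% interval from -0.21 to 0.14. Cry1, a repressor of BMAL1 that peaks late, differed by -0.60 in BL6 and 0.084 in BLKS.

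The genes of the Per phase and the clock's output gave no call. Of 13 members tested, 2 were higher and 2 lower at an unadjusted p under 0.05 (30.8%, beside 7.04% of all genes). A positive difference was found in 9 of the 13, beside 46.5% of all genes. The median was 0.0436, and it ran from -0.0037 to 0.068 when single mice were left out. Per3 had the largest difference of the 13. Its BL6 levels were -5.22, -4.43, -4.09 and -3.98 on chow and -2.86, -3.81, -3.91 and -3.54 on the high-fat diet. Its BLKS levels were -3.58, -4.42, -3.40 and -3.61 on chow and -3.29, -3.42, -2.96 and -2.44 on the high-fat diet. Every BL6 high-fat mouse was above every BL6 chow mouse, and the BLKS groups overlapped slightly. The probe is dim, not well above background on 1 BL6 chow array, and the difference of 0.81 (SE 0.219) did not pass (adjusted p = 0.342). Tef, an activator at the D-box, differed by 0.23 (SE 0.091, adjusted p = 0.623), with nearly equal values of 0.24 in BL6 and 0.22 in BLKS. Nr1d1, which encodes REV-ERB-alpha, differed by -0.39 (adjusted p = 0.604), by -0.20 in BL6 and by -0.58 in BLKS. The deubiquitinase gene Usp2 differed by 0.018 in BL6 and by -0.68 in BLKS. Dbp and Per2 differed by 0.044 and -0.059, and the 95% interval of Dbp ran from -0.21 to 0.30. Ciart carries its older name Gm129 on this array and differed by 0.15.

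Clock genes also differed widely between strains within the same diet. On chow Nr1d1 was 5.38 higher in BLKS than in BL6, Bhlhe40 was 3.72 higher and Dbp was 2.48 higher, while Arntl was 0.27 higher and Clock differed by -0.20. The strains lay on different slides, so strain and slide cannot be told apart in these chow values. The labels used here give no time of day at which islets were taken. For these genes the time of isolation therefore cannot be told apart from the diet or the strain.

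**Figure D3:**
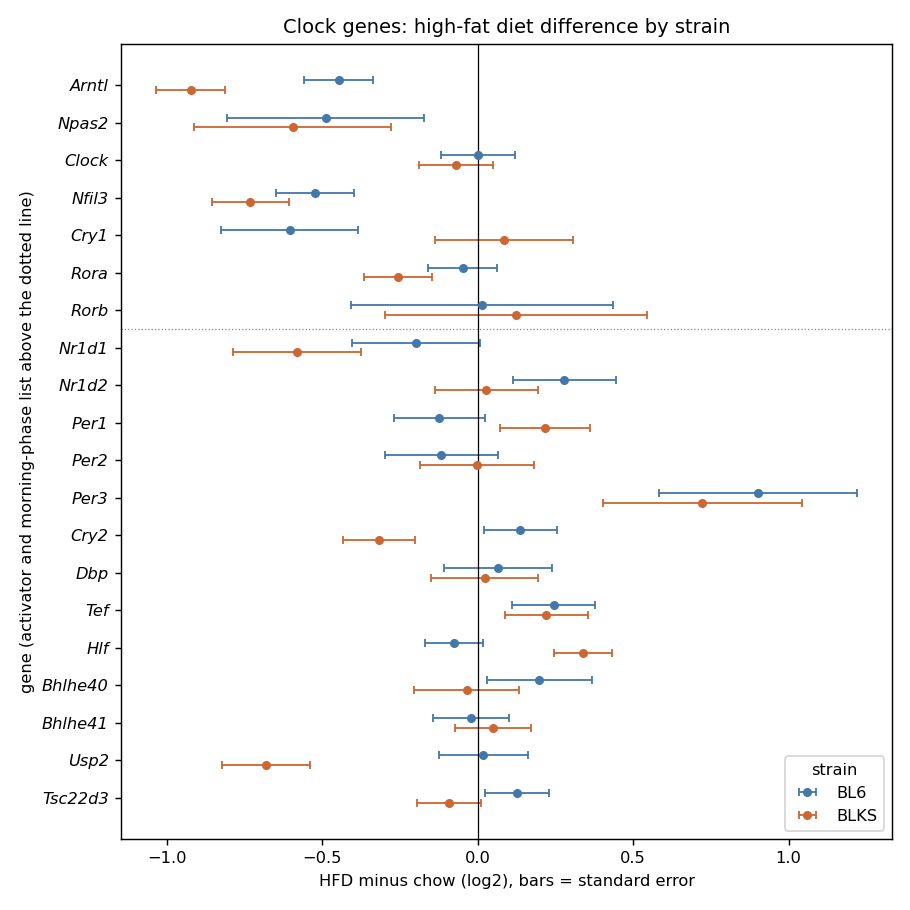
Difference between high-fat diet and chow (log2) for 20 clock genes in BL6 (blue) and BLKS (orange), with bars of 1 standard error. Arntl and Nfil3 lie below 0 in both strains, and Per3 lies above 0 in both. Some genes lie on opposite sides of 0, among them Usp2, Cry1, Cry2, Per1 and Hlf. The Cry2 probe shown gave 0.14 in BL6 and -0.32 in BLKS, and a second Cry2 probe gave the reverse, -0.50 and 0.12.

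Cpm encodes carboxypeptidase M, a membrane-bound enzyme that removes basic residues from the end of peptides. Its levels in BL6 were 1.19, 1.38, 1.34 and 1.52 on chow and 0.89, 0.76, 0.64 and 0.60 on the high-fat diet. In BLKS they were 2.32, 2.11, 2.34 and 2.07 on chow and 1.95, 1.93, 1.61 and 1.57 on the high-fat diet. The diets did not overlap in either strain. Cpm fell by 0.54 over both strains (SE 0.081, adjusted p = 0.0399), to 0.688 of the chow level, with differences of -0.63 in BL6 and -0.44 in BLKS (adjusted p of the limma interaction = 0.723). Its probe lies at mm9 chromosome 10, 117121930 to 117121989.

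Gm2569 is a predicted transcript with no entry in the RefSeq table used here, named because it is among the few that passed. Its probe of 60 bases (chr13:104382670-104382729 on mm9, minus strand) is shown as the only identity it has in these data.
Gm2569 probe: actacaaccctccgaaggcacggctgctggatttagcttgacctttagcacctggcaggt
Its BL6 levels were -0.25, 0.03, -0.07 and 0.35 on chow and -0.91, -0.73, -1.15 and -0.96 on the high-fat diet. In BLKS they were -0.27, -0.61, 0.07 and -0.23 on chow and -1.45, -1.07, -1.24 and -0.54 on the high-fat diet. The BL6 groups were separate, and 1 BLKS high-fat mouse lay above the lowest BLKS chow mouse. Over both strains it fell by 0.88 (SE 0.132, adjusted p = 0.0399), to 0.543 of the chow level.

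The mice on high-fat diet with pioglitazone gave further levels of these genes. Arntl was 0.34 ± 0.26 (SD, n = 4) in BL6 and 0.61 ± 0.18 in BLKS, below all chow mice of the same strain in each of the 8 mice. Nfil3 was 2.52 ± 0.29 in BL6 and 5.44 ± 0.12 in BLKS, again below every chow mouse of the strain. Cpm was 1.30 ± 0.08 in BL6, within the range of the BL6 chow mice, and 1.82 ± 0.17 in BLKS. Gm2569 was -0.79 ± 0.54 in BL6 and -0.83 ± 0.34 in BLKS. These mice would be compared with the same chow mice, so they are given as levels with no test. The BL6 pioglitazone arrays lay on slides 2 and 4 and the BLKS ones on slide 3. None shared a slide with chow arrays of its strain, so slide and treatment cannot be told apart in these levels.

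The 4 calls lay close to the threshold. With slide as a random block all 4 passed (adjusted p = 0.049 each), and with mouse number as a block none did (adjusted p = 0.063 to 0.14). The count of calls was also 0 with the authors' deposited value table and with no filter on dim probes, with the 4 genes lower in each. When 1 mouse was left out at a time, Arntl still passed in 2 of 16 fits (without BL6 high-fat mouse 1 or 2), Nfil3 in 3 (those and without BLKS high-fat mouse 3), Gm2569 in 1 (without BLKS high-fat mouse 4) and Cpm in 0. Their adjusted p then ranged from 0.0075 to 0.13, while the Arntl difference stayed between -0.74 and -0.63.

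Genes close behind the calls were mostly lower as well. Among the 50 genes of lowest p, 12 were higher and 38 lower on the high-fat diet. Lpl, which encodes lipoprotein lipase, had BL6 levels of 3.73, 3.84, 3.91 and 4.02 on chow and 3.61, 3.54, 3.54 and 3.25 on the high-fat diet. In BLKS they were 3.88, 3.90, 3.79 and 4.09 on chow and 3.58, 3.31, 3.32 and 3.12 on the high-fat diet. The groups were separate in both strains, and the difference of -0.48 (SE 0.080) did not pass (adjusted p = 0.0728); a second Lpl probe gave -0.54. BC089597, now named Rdh16f2 and a member of the retinol dehydrogenase family, differed by -0.60 (adjusted p = 0.0728), with 0.47 and 0.72 lower levels in BL6 and BLKS. Fndc5, the precursor gene of irisin, differed by -0.45, and Tmsb15l, a thymosin beta gene, by -0.35 (adjusted p = 0.107 each). Lingo3, a leucine-rich repeat membrane protein gene, differed by -1.03 (SE 0.188, adjusted p = 0.119).

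A probe without a gene name, A_55_P1977140 (mm9 chromosome 1, 37244405 to 37244464), was well above background on 3 high-fat arrays of each strain and on 0 chow arrays. It entered the fit only through the high-fat groups, so no test is given, and its chow level has only a bound. Against that bound it was at least 1.49-fold higher on the high-fat diet in BL6 and at least 1.15-fold higher in BLKS.
A_55_P1977140 probe: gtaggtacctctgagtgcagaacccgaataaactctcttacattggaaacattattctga
Genes that were higher without passing included Hpgds, which encodes the hematopoietic prostaglandin D synthase. Hpgds lay between -2.23 and -1.57 in BL6 on chow against -1.29, -1.62, -1.31 and -1.52 on the high-fat diet. Among BLKS mice it was -2.38, -2.76, -2.66 and -2.91 on chow against -1.98, -1.45, -1.52 and -1.92. The BLKS groups were separate and the BL6 groups overlapped, with a difference of 0.71 over both strains (SE 0.128, adjusted p = 0.118). Rasd2, a small GTPase gene, differed by 0.87 (adjusted p = 0.159), by 1.27 in BL6 and 0.48 in BLKS. Hyls1 differed by 0.32 and the vomeronasal receptor gene Vmn1r48 by 0.51 (adjusted p = 0.162 each). A second, dimmer Hyls1 probe gave 0.096.

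Some antigen presentation genes, picked after their values were seen, had positive differences in both strains without passing. H2-D1, a class I heavy chain gene, was 5.39, 5.41, 5.41 and 5.52 in BL6 on chow and 5.66, 5.85, 5.74 and 5.88 on the high-fat diet. Levels in BLKS were 5.99, 6.23, 6.32 and 6.21 on chow and 6.38, 6.39, 6.60 and 6.43 on the high-fat diet. No high-fat mouse fell within the chow range of its strain, and the difference was 0.30 (SE 0.059, adjusted p = 0.159). H2-K1 differed by 0.31 (SE 0.063, adjusted p = 0.162) and also separated in both strains; its second probe gave 0.17. H2-M2 differed by 0.24 (adjusted p = 0.305); a second, dim probe gave 0.37 in BL6 and -0.25 in BLKS. Class I genes are near-identical to one another and vary between strains, so their probes can share signal, and strain levels are not compared. The immunoproteasome subunit genes Psmb9 and Psmb8 differed by 0.42 and 0.39 (adjusted p = 0.476 and 0.594). Of 28 interferon response genes, 0 passed, and 6 were higher and 0 lower at an unadjusted p under 0.05 (21.4%, beside 7.04% of all genes). In both strains 12 were higher (42.9%, beside 20.9% of all genes). The median of the 28 was 0.115, or 0.173 without BL6 chow mouse 4.

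Inflammatory genes gave 0 calls among 29 tested. At an unadjusted p under 0.05, 7 were higher and 1 lower (27.6%, beside 7.04% of all genes). The median of the 29 was 0.166. The median was 0.328 without BL6 high-fat mouse 3 and 0.279 without BL6 chow mouse 4. The chemokine gene Ccl2 was -4.50, -4.75, -4.14 and -3.49 in BL6 on chow and -2.49, -2.34, -4.16 and -3.29 on the high-fat diet, with 2 BL6 chow arrays well above background. Among BLKS mice it was 1.07, 1.33, -0.14 and 1.81 on chow and 3.17, 1.88, 4.31 and 1.19 on the high-fat diet. The ranges overlapped in both strains, and the difference of 1.39 (SE 0.428) did not pass (adjusted p = 0.449). Socs3, an inhibitor of cytokine signalling, went the other way by -0.41 (SE 0.099, adjusted p = 0.234) with separate groups in both strains. Of 20 macrophage markers tested, 0 passed, and 4 were higher and 1 lower at an unadjusted p under 0.05 (25%, beside 7.04% of all genes). The sign was the same in both strains in 14, of which 12 were higher in both (60%, beside 20.9% of all genes). The median of the 20 was 0.635 in BL6 and 0.0308 in BLKS. Ctss and Cd68 differed by 0.51 and 0.42 (adjusted p = 0.327 and 0.515). A second, dim Cd68 probe gave 0.71 in BL6 and -0.45 in BLKS.

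A ligand and a receptor of the activin family separated in both strains in opposite directions; they were picked after their values were seen. Inhbb, which encodes the subunit of activin B, was -0.35, -0.96, -0.67 and -1.21 in BL6 on chow and -0.18, 0.47, 0.51 and 0.40 on the high-fat diet. Levels in BLKS were 2.34, 2.15, 2.52 and 2.42 on chow and 2.93, 2.74, 2.62 and 2.56 on the high-fat diet. The difference was 0.72 (SE 0.157, adjusted p = 0.187), 1.09 in BL6 and 0.35 in BLKS. Acvr1c, which encodes the receptor ALK7, was 0.11, 0.04, 0.23 and 0.41 in BL6 on chow and -0.04, -0.47, -0.11 and -0.65 on the high-fat diet. Among BLKS mice it was -0.50, -0.57, -0.57 and -0.57 on chow and -0.96, -0.97, -1.01 and -0.86 on the high-fat diet. No group of either gene overlapped its counterpart, and the Acvr1c difference was -0.46 (SE 0.084, adjusted p = 0.122), with -0.40 from a second probe.

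Fatty acid genes showed 0 calls. Of 35 PPAR-alpha and fatty acid oxidation targets tested, 3 were higher and 1 lower at an unadjusted p under 0.05 (11.4%, beside 7.04% of all genes). The median of the 35 was 0.0416, and it ran from 0.0037 to 0.052 when single mice were left out. Cpt1a, which encodes the carnitine palmitoyltransferase that admits fatty acids to mitochondria, was 1.55, 1.69, 1.61 and 1.83 in BL6 on chow and 2.12, 2.26, 2.39 and 2.13 on the high-fat diet. Levels in BLKS were 1.34, 1.73, 2.01 and 1.65 on chow and 1.74, 1.80, 1.94 and 1.99 on the high-fat diet. The BL6 groups were separate and the BLKS groups overlapped, and the difference of 0.37 (SE 0.097) did not pass (adjusted p = 0.305). Angptl4, an inhibitor of lipoprotein lipase, differed by 0.83 (adjusted p = 0.577). The fatty acid carrier gene Cd36 differed by 0.37 with a 95% interval from -0.12 to 0.87, and Pparg by 0.042 with an interval from -0.20 to 0.28. Cholesterol synthesis genes had a median of 0.113 (0.06 without BLKS high-fat mouse 1). Of the 25, 3 were higher and 0 lower at an unadjusted p under 0.05 (12%, beside 7.04% of all genes). Fatty acid synthesis genes had a median of -0.0045.

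Immediate early genes, which respond within minutes to stimulation, gave 0 calls among 22 tested. At an unadjusted p under 0.05, 8 were lower and 0 higher (36.4%, beside 7.04% of all genes). The median was -0.117 (-0.0732 without BL6 chow mouse 1, -0.178 without BL6 chow mouse 4). Jun was 5.95, 5.12, 4.72 and 4.60 in BL6 on chow and 4.40, 3.98, 3.16 and 3.30 on the high-fat diet. Among BLKS mice it was 7.51, 7.62, 7.53 and 7.25 on chow and 6.73, 6.87, 7.12 and 6.69 on the high-fat diet. The diets were separate in both strains, and the difference was -1.01 (SE 0.222, adjusted p = 0.189). Atf3 and Fosb differed by -0.68 and -0.67 (adjusted p = 0.281 and 0.311). Fos and Egr1 differed by -2.18 and -1.76 in BL6 but by -0.17 and -0.23 in BLKS (adjusted p of the limma interaction = 0.323 and 0.307). On chow the same genes were far higher in BLKS than in BL6, by 3.26 for Fos, 6.49 for Fosb and 8.03 for Atf3. The strains lay on different slides, so strain and slide cannot be told apart in these differences. The handling of islets before lysis is not described per mouse, and its part in these values was not tested.

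Of 24 acinar genes tested, 23 had a positive difference, beside 46.5% of all genes. Of the 24, 0 passed and 0 had an unadjusted p under 0.05 (0%, beside 7.04% of all genes). Their median was 2.25 (1.93 in BL6 and 2.64 in BLKS), or 1.40 without BLKS chow mouse 1. The mean acinar level was 1.78, 6.48, 3.40 and -0.78 in BL6 on chow and 5.54, 3.44, 5.65 and 3.00 on the high-fat diet. In BLKS it was -2.97, 5.63, 2.09 and 4.52 on chow and 4.84, 3.95, 6.67 and 3.83 on the high-fat diet. The chow range held all 4 high-fat mice in BL6 and 3 of 4 in BLKS. With this mean as a covariate 0 genes passed; Arntl then differed by -0.68 and Nfil3 by -0.60 (adjusted p = 0.19 each). The lymphocyte mean ranged from -3.27 to -0.30 in BL6 on chow and from -3.19 to 1.73 on the high-fat diet, and from -2.84 to -0.27 and from -2.84 to 1.70 in BLKS. BL6 high-fat mouse 4 and BLKS high-fat mouse 3 were the highest. Without these mice 0 of the 4 called genes passed, with differences of -0.68 for Arntl, -0.55 for Nfil3, -0.49 for Cpm and -0.85 for Gm2569 (adjusted p = 0.18, 0.095, 0.18 and 0.18). In bulk islets, fewer cells of a type and less RNA per cell cannot be told apart.

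**Figure D4:**
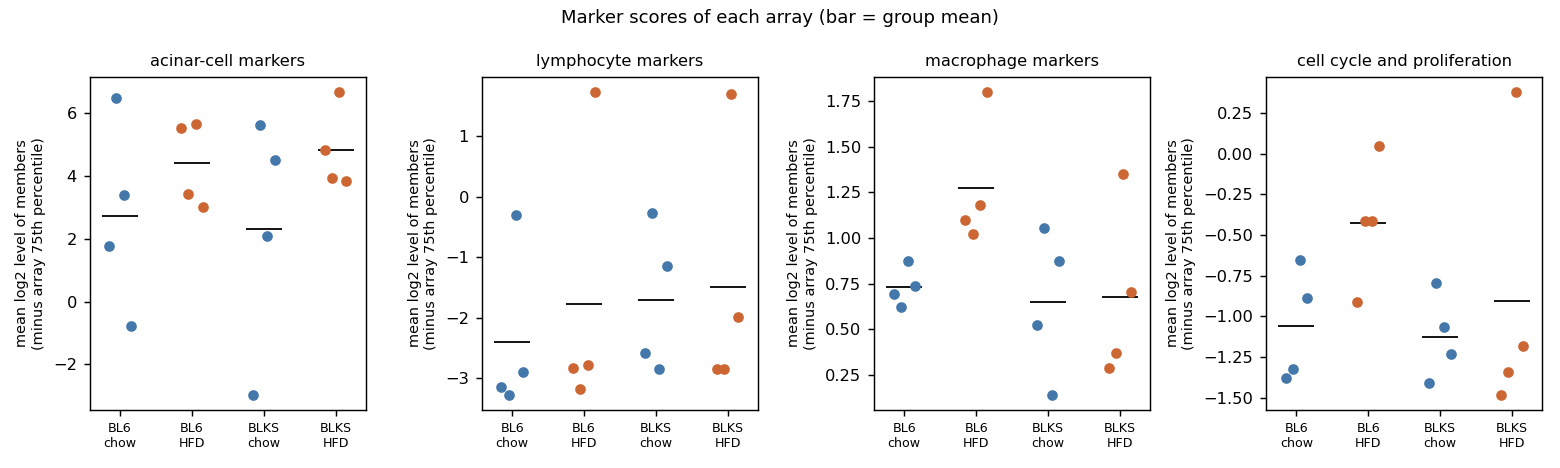
Mean level (log2 intensity minus the array's 75th percentile) of acinar, lymphocyte, macrophage and cell cycle genes on each of the 16 arrays, with a bar for the group mean. Acinar means of chow mice spread from -2.97 to 6.48, and the highest lymphocyte and cell cycle means on the high-fat diet belong to the same mouse in each strain.

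Cell cycle genes had a positive difference in 36 of 41 members tested, beside 46.5% of all genes. Of these 41, 0 passed, and 7 were higher and 0 lower at an unadjusted p under 0.05 (17.1%, beside 7.04% of all genes). In both strains 29 were higher (70.7%, beside 20.9% of all genes). The median of the 41 was 0.431 (0.633 in BL6 and 0.17 in BLKS). Mki67, which marks dividing cells, was -1.80, -1.61, 0.04 and -0.87 in BL6 on chow and -0.70, 0.32, 0.32 and 1.63 on the high-fat diet. In BLKS it was -1.54, -0.37, -0.87 and -1.17 on chow and -2.01, -1.54, 1.86 and -1.12 on the high-fat diet. Only 1 BLKS high-fat mouse was above the BLKS chow range. Without the 2 mice of highest lymphocyte mean the median of the list was 0.101, that of macrophage genes was 0.127 in place of 0.269, and that of lymphocyte genes turned from 0.469 to -0.543. The median of interferon response genes was then 0.135. Leaving out 1 of them moved the cell cycle median to 0.256 (BL6 high-fat mouse 4) or 0.233 (BLKS high-fat mouse 3), and the lymphocyte median to -0.0324 or 0.0257.

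None of the islet hormone genes passed. The 95% intervals of the difference were -0.20 to 0.20 for Ins1, -0.20 to 0.18 for Ins2, -0.24 to 0.11 for Gcg and -0.21 to 0.055 for Sst. Ppy differed by -0.46 with an interval from -1.05 to 0.13. Of 29 beta-cell identity genes, 0 passed, and 1 was higher and 5 lower at an unadjusted p under 0.05 (20.7%, beside 7.04% of all genes). The median of the 29 was -0.063, or -0.0191 without BLKS high-fat mouse 3 and -0.0304 without BLKS chow mouse 1. The transcription factor gene Nkx6-1 had the lowest p of these, with differences of -0.12 in BL6 and -0.38 in BLKS (adjusted p = 0.438). The glucose transporter gene Slc2a2 and the transcription factor gene Mafa differed by -0.16 and -0.17 with intervals that included 0, and Pdx1 by 0.061. Ribosome biogenesis genes had 5 of 32 higher and 0 lower at an unadjusted p under 0.05 (15.6%, beside 7.04% of all genes). Of the 32, 15 were higher in both strains (46.9%, beside 20.9% of all genes) and 0 lower in both. The median of the list was -0.015 in BL6 but 0.259 in BLKS. At an unadjusted p under 0.05 respiratory chain genes had 0 of 38 in either direction (0%, beside 7.04% of all genes). Of 31 unfolded protein response genes, 0 were higher and 1 lower at an unadjusted p under 0.05 (3.23%, beside 7.04% of all genes). Of the 31, 16 were lower in both strains (51.6%, beside 25.5% of all genes), with a median of -0.0083 in BL6 and -0.129 in BLKS.

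**Figure D5:**
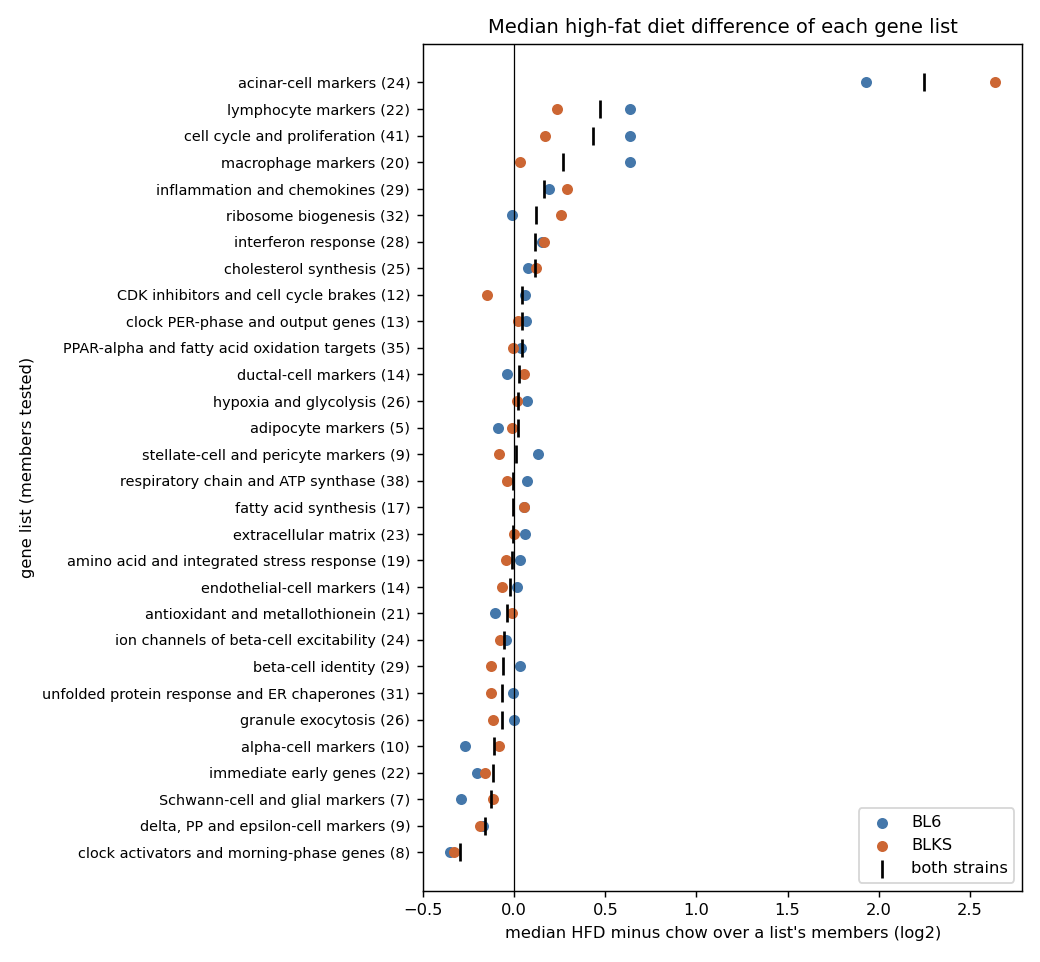
Median difference between high-fat diet and chow (log2) over the members of each gene list, in BL6 (blue), in BLKS (orange) and over both strains (black bar), with the number of members tested in brackets. Acinar markers lie farthest above 0 at 2.25 and the clock activator list lies lowest at -0.295.

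Genes that passed in 1 strain were looked up in the other. The differences of the strains share no arrays, but the fit shares its estimate of the spread over all 16, and with the 8 arrays of a strain alone 0 genes passed in BL6 and 0 in BLKS. In BL6, 12 genes passed (0.0535%), 8 higher (0.0357%) and 4 lower (0.0178%), beside 1428 at an unadjusted p under 0.05 (6.37%). In BLKS, 10 passed (0.0446%), 1 higher (0.00446%) and 9 lower (0.0401%), beside 2311 at an unadjusted p under 0.05 (10.3%). Of the 12, 6 had the same sign in BLKS, and 2 of those an unadjusted p under 0.05 there: Rasd2 and a probe for a transcribed region on chromosome 6. The chromosome 6 probe was well above background on no BL6 high-fat array, so its BL6 fall has only a bound, at least 1.42-fold. Another kept probe of that region differed by -0.22 in BL6 and -0.0043 in BLKS. Of the 10, 5 had the same sign in BL6, and 2 of those an unadjusted p under 0.05: Arntl and Ak5, an adenylate kinase gene that differed by -0.23 in BL6 and -0.93 in BLKS. Among the 100 genes of lowest p in BL6, 47 had the same sign in BLKS, and the count was also 47 in the other direction. Of all 22431 genes, 10411 had the same sign (46.4%). An unadjusted p under 0.05 was held by 1019 of these in BLKS and by 677 in BL6. Of the genes that passed in 1 strain, Emid1 had the same sign in both (-0.26 in BL6 and -0.91 in BLKS). The deacetylase gene Hdac8 differed by 0.022 in BL6 and -0.58 in BLKS, but its second probe gave -0.19 and -0.60. Sirpb1a had opposite signs (1.68 in BL6 and -0.60 in BLKS). Cdkn2c, which encodes a cyclin-dependent kinase inhibitor, was another with opposite signs, with 0.71 in BL6 and -0.16 in BLKS. The strains' responses differed at an adjusted p under 0.05 in 4 genes (0.0178%), beside 2178 at an unadjusted p under 0.05 (9.71%). They were the purinergic receptor gene P2ry1 (1.00 in BL6, -0.47 in BLKS), Fam19a1 (0.52 and -0.88), the kinase gene Tnik (0.12 and -0.51) and the transcript D030063E12 (0.33 and -0.31), each adjusted p = 0.0448. The diet groups lay on different slides in BLKS but not in BL6. A strain difference in response therefore cannot be told apart from a slide difference within BLKS.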

How the data were processed

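RNA of islets from single mice was hybridised to 1-colour Agilent arrays of 62976 spots. Per the file headers, the authors scanned them with Agilent Feature Extraction 10.7.3.1, whose deposited processed signal is a background-subtracted intensity; probe positions are on mm9. The authors' deposited value table holds a ratio, the processed intensity over a constant of each array (largest relative deviation 1.6e-06), and was an alternative only. The log2 values were computed here from the deposited intensity, minus each array's 75th percentile over distinct non-control probes.

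A probe was kept where at least 4 of the 16 arrays had it well above background (31861 probes; 33 were left out for an outlier flag), and the brightest kept probe stood for each of 22431 gene names. Accessions of 65.2% of tested probes matched a current symbol in a RefSeq table of GRCm38.p6. Differences were fitted over all genes with limma 3.58.1 (R 4.3.3; lmFit, eBayes) as strain plus diet on the 16 arrays. A model of 4 group means gave the values within strains and the interaction. P-values were adjusted by Benjamini-Hochberg with a threshold of 0.05, and the steps were tested on simulated data. Standard errors are limma's and are moderated over genes.

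Genes named were those that passed, the 6 of lowest p in each direction, genes that passed in 1 strain, and a standing list of islet, clock and growth genes; other named genes were chosen after their values were seen. The genes and lists were chosen with earlier results of these data known. Alternatives covered normalization, background correction, filters, probe choice, model, slide, mouse number, marker covariates and leaving out each mouse. Results for some genes are not reported here.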

Additional observations from a re-analysis of the deposited data

Results flagged for a closer look

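Single mice stood apart from the other 3 of their group, by a gap over Dixon's critical value at the 95% level, in 21 of 296 groups examined for named genes; chance gives about 1 in 20. BLKS chow mouse 3, the only one on slide 4, was the high one for Fos (5.55, others 5.01 to 5.10), Atf3 (5.58, others 4.61 to 4.76), Fosb (6.33, others 5.71 to 5.80) and Socs3 (5.00, others 4.45 to 4.50). BLKS high-fat mouse 3 was high for Plk1 (-0.79, others -2.56 to -2.28), Birc5 (1.63, others -1.60 to -1.44) and Bhlhe40 (2.93, others 2.17 to 2.26). BL6 high-fat mouse 1 was high for Dbp (3.05, others 2.75 to 2.78) and Nkx6-1 (5.76, others 5.58 to 5.61) and low for Inhbb (-0.18, others 0.40 to 0.51) and Cdkn2c (-0.08, others 0.04 to 0.06).

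In BL6 chow mice, Ppy was low in mouse 1 (9.07, others 9.55 to 9.63), Fosb was high in mouse 1 (-0.04, others -0.82 to -0.70), Hyls1 was high in mouse 2 (-2.49, others -2.67 to -2.65), Per2 was low in mouse 3 (-1.36, others -1.14 to -1.11) and Hlf was high in mouse 4 (-0.71, others -0.90 to -0.89). In BLKS chow mice, Vmn1r48 was low in mouse 2 (-4.12, others -3.48 to -3.39), H2-M2 was low in mouse 1 (3.30, others 3.52 to 3.55) and Acvr1c was high in mouse 1 (-0.50, others at -0.57). Tef was low in BL6 high-fat mouse 4 (4.07, others 4.30 to 4.33), and Ak5 was low in BLKS high-fat mouse 1 (-2.82, others -2.63 to -2.60). The mean of lymphocyte markers was high in BL6 chow mouse 3 (-0.30, others -3.27 to -2.89) and in BL6 high-fat mouse 4 (1.73, others -3.19 to -2.78).

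The diet effect differed between strains by limma's interaction term in 4 genes, given as BLKS minus BL6: -0.64 for D030063E12, -1.40 for Fam19a1, -1.47 for P2ry1 and -0.63 for Tnik (adjusted p = 0.045 each). With the acinar mean as covariate 0 genes passed this test. Diet and slide cannot be told apart within BLKS, so slide may enter these strain differences.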

How the results depend on the processing

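The 4 shared differences kept their sign under every alternative run, from -0.74 to -0.45 for Arntl, but the number of calls moved. Over both strains (4 calls) it was 13 with group means, 14 with normexp and quantile normalization, 8 with quantile normalization or all 24 arrays, 2 with the lymphocyte mean as covariate, 1 (Tacc2) without the high-fat mouse of highest lymphocyte mean in each strain, and 0 with the acinar mean, both marker means, the authors' deposited value table, no filter on dim probes, or the BL6 arrays of slide 1 alone. It was 0 to 4 when single mice were left out. Within BL6 (12) it was 7 with probes above background on all arrays, 6 with the mean of probes, no filter or those mice left out, 5 with the acinar or both marker means, 4 with the authors' table, 0 with the strain's 8 arrays alone, and 3 to 17 without single mice. Within BLKS (10) it was 73 with normexp, 32 with the mean of probes or probes above background on all arrays, 18 with 24 arrays, 16 with the lymphocyte mean, 2 with the acinar mean, 1 with the authors' table, 0 with both marker means or the strain's 8 arrays alone, and 1 to 20 without single mice. The strain difference (4) gave 0 with the acinar or both marker means, 24 arrays, the authors' table, no filter or those mice left out, and 0 to 4 without single mice. Genes called in 1 strain with the same sign in the other (11) numbered 41 with normexp, 20 with the mean of probes or probes above background on all arrays, 4 with the acinar mean, 3 with the authors' table, 1 with both marker means, and 4 to 16 without single mice. Genes separated in both strains in the same direction (34) numbered 87 without those mice and 40 to 84 without single mice; in opposite directions (42) 120, 65 with normexp, 21 with the authors' table, and 50 to 82. Opposite genes at an unadjusted p under 0.05 (113) numbered 75 with the acinar mean and 76 to 167 without single mice, against 85 to 157 for the same direction, and 9958 to 10819 genes kept 1 sign. Smaller groups separate more easily. The other causes were not tested.

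With mouse number as a replicate block the calls were 0 over both strains, 5 within BLKS and 0 for the strain difference. Mice of the same number correlated from -0.456 to 0.131 in their deviations from group means, so the numbers were not taken to pair mice. The joint marker covariates, the left-out pair of mice and the percentile over spots (4 calls) were chosen after seeing the data. Array number limits precision, and dim probes give bounds only.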
